A study of Mus musculus with 6 samples.

Results

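Irf3 lies on mouse chromosome 7 in a gene-dense stretch, and the genes on both sides of it were followed in infarct tissue of mice with and without the gene. The list named 38 genes, from Vrk3 at one end to Grwd1 at the other, and was drawn up by position near Irf3 with Kcnj14 added. The deposited table holds 33 of them by symbol, out of 12969 genes in all, and all 33 passed the filter on low values. Flt3l, Il4i1, Ppfia3, Lin7b and Tulp2 are not analysed here. The order of protein-coding genes was taken from RefSeq, whose assembly (GRCm38.p6) differs from the build behind the table (mm9), so positions are given as a number of genes from Irf3 and not as coordinates. In that order the 33 genes run from 16 genes before Irf3 to 59 genes after it.

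The RNA came from infarcted heart of male mice about 12 weeks old, 4 days after permanent suture ligation of the left anterior coronary artery. There were 3 libraries from IRF3-/- mice (called Irf3KO) and 3 from WT mice, which the labels give as C57BL/6. For the IRF3-/- mice, neither the strain nor the deleted stretch of Irf3 is stated in the labels. Nothing states that the 3 samples of a group came from separate mice, so p-values reflect the scatter of these samples, which may be technical.

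IRF3 is a transcription factor that cells activate when they sense foreign or misplaced nucleic acids, and it switches on type I interferon. A mouse line made by targeting a gene in embryonic stem cells of one strain, then bred to another strain, keeps a stretch of the first strain's chromosome around the targeted gene, because close neighbours are rarely separated by recombination. Genes in such a stretch can differ from those of control mice through their own sequence. In a comparison of knockout with wild-type animals the loss of the targeted gene and a difference in the linked stretch cannot be told apart, and whether these mice carry such a stretch was not tested.

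Promoter sequence was available for 32 of the 38 listed genes, that is for all but Kcnj14, Vrk3, Tbc1d17, Dhdh, Trpm4 and Ptov1, in windows of 300 bases that run from 250 before to 50 after the annotated start (RefSeq, GRCm38.p6). The windows were searched on both strands for GAAA, any 2 bases and GAAA again, the core letters of the interferon-stimulated response element that IRF factors bind (TTTC, any 2 bases and TTTC on the other strand). Some genes have more than 1 annotated start, so that the 32 genes gave 38 windows. The letters were found in 3 of these 38 windows, those of Rcn3, Flt3l and Kcna7, and in 3.44% of all 32851 windows. The windows of Rcn3 and Kcna7 are printed because they hold the letters, and that of Grwd1 because it is the neighbour of Kcnj14 and holds none. Capitals mark the match.
Rcn3, chr7:45092164-45092463, minus strand: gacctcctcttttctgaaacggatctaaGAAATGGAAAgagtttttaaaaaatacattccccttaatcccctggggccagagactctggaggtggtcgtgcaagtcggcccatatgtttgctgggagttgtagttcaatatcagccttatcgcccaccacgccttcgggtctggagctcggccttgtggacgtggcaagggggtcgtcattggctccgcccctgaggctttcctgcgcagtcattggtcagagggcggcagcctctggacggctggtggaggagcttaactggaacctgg
Kcna7, chr7:45405710-45406009, plus strand: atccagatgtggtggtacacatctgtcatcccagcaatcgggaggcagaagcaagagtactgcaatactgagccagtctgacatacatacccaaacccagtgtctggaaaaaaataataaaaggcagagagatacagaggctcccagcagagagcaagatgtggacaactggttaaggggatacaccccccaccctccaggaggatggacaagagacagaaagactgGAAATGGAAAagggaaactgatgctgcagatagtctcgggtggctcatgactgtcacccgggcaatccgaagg
Grwd1, chr7:45830740-45831039, minus strand: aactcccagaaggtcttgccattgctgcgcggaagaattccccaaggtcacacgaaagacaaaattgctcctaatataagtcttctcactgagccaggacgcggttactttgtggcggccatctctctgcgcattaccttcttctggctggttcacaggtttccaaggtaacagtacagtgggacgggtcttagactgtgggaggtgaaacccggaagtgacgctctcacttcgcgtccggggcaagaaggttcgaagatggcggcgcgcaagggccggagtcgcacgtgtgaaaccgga
The same letters, GAAATGGAAA, begin 222 bases before the start of Rcn3 and 23 bases before that of Kcna7. A match describes the letters of the reference strain and does not show that a factor binds there.

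Values were RPKM, reads per kb of gene length scaled to a common sequencing depth. The steps between low values placed the depth at 14.79 to 61.91 M reads in genes for the Irf3KO libraries and at 15.72 to 20.79 M reads for the WT libraries. Irf3KO replicate 2 stood apart, with a mean correlation of 0.907 with the other libraries, against 0.941 to 0.966 for the rest. All 12 listed cardiomyocyte markers and 11 of 12 macrophage symbols were held by the table, and none of these was at 0 in all libraries. The macrophage symbol not held, Adgre1, names the same gene as Emr1, which was held. Summed RPKM of the cardiomyocyte markers ran from 14121.6 to 23878.8 in Irf3KO and from 6824.2 to 18688.7 in WT, and that of the macrophage markers from 2039.8 to 5566.1 in Irf3KO and from 3180.4 to 5830.0 in WT. In bulk tissue fewer cells of a type and less RNA per cell cannot be told apart.

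Reads of the gene at the centre were present in all libraries. In Irf3KO replicates 1 to 3 the level of Irf3 was 7.40, 8.74 and 7.68 RPKM, against 13.76, 13.87 and 11.56 RPKM in WT replicates 1 to 3. Every Irf3KO library lay below every WT library, and the difference did not pass the test across all genes (log2 fold change -0.65 ± 0.18, SE; limma adjusted p = 0.344). Bcl2l12, which shares its start region with Irf3, stood at 0.75, 0.25 and 1.32 RPKM in Irf3KO and at 3.40, 3.16 and 2.16 RPKM in WT (limma adjusted p = 0.15).

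Among the flanking genes 1 of 33 rose in Irf3KO and none fell. Over all 12913 genes tested, 0.147% rose and 0.356% fell by the same rule, a limma adjusted p under 0.05 on log2(RPKM + 1). The gene that rose was Kcnj14, which had joined the list with its earlier result known. Kcnj14 is also in each count of called, higher or low-p flanking genes that follows. Its place there was fixed by that choice, and it raises the shares set against all genes. With array weights, which weight each library by its estimated precision, 7 of 33 (21.2%) were called, against 22.9% of all genes. That fit rests mostly on Irf3KO replicate 3 and WT replicate 2, with weights of 6.36 and 4.4. The other libraries had weights of 0.103 (Irf3KO replicate 2) to 1. An unadjusted limma p under 0.05 was found for 5 of 33 genes (15.2%), Kcnj14, Grwd1 and Fcgrt with higher and Dhdh and Cpt1c with lower values in Irf3KO, against 8.4% of all genes (2.45% higher and 5.96% lower). The 3 libraries of each group did not overlap for 7 genes that were higher and 3 that were lower in Irf3KO, which is 21.2% and 9.09% of the 33, against 6.61% and 11.8% of all genes, 18.4% in both directions. Each of these 10 genes had p = 0.1 in a two-sided exact permutation test, the smallest value that 3 libraries against 3 allow.

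The counts were also taken without Irf3KO replicate 2, the library that stood apart. Kcnj14 was again the only flanking gene called, against 0.209% of all genes called as higher and 0.541% as lower. An unadjusted limma p under 0.05 was found for 4 of the 33, Kcnj14 and Grwd1 with higher and Dhdh and Cpt1c with lower values in Irf3KO, against 7.88% of all genes (2.47% higher and 5.4% lower). Groups did not overlap for 7 genes that were higher and 4 that were lower, Rras being the added one, against 10.9% and 13.3% of all genes, 24.1% in both directions.

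**Figure D1:**
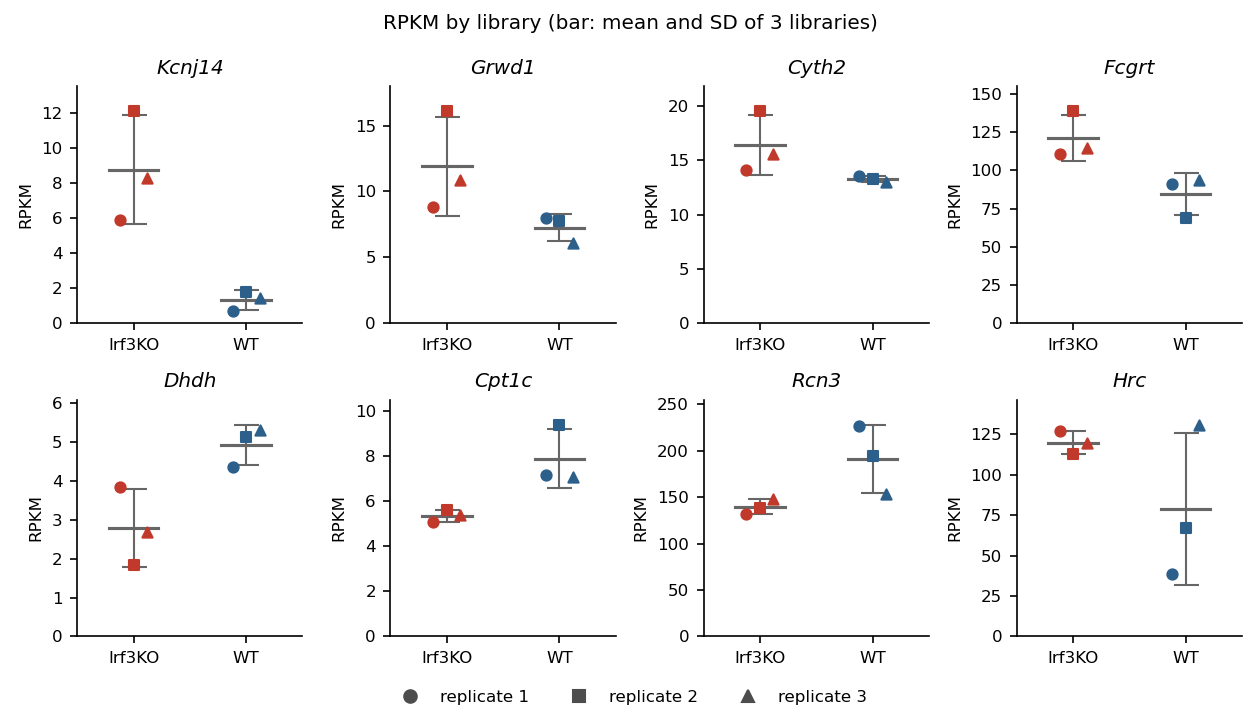
RPKM of 8 flanking genes in each library, with Irf3KO on the left and WT on the right of each panel, points by replicate number, and the mean and SD of 3 libraries as bars. The 3 Irf3KO libraries lie above the 3 WT libraries for Kcnj14, Grwd1, Cyth2 and Fcgrt and below them for Dhdh, Cpt1c and Rcn3, while the groups overlap for Hrc.

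Kcnj14 encodes Kir2.4, an inwardly rectifying potassium channel of the family that helps to set the resting potential of excitable cells. It stood at 5.89, 12.07 and 8.26 RPKM in Irf3KO replicates 1 to 3, against 0.66, 1.77 and 1.45 RPKM in WT replicates 1 to 3. The lowest Irf3KO library was above the highest WT library, and the highest Irf3KO value was that of replicate 2. These values correspond to about 230, 576 and 1350 reads in the Irf3KO libraries and about 33, 97 and 60 reads in the WT libraries. The mean was 8.74 ± 3.12 RPKM in Irf3KO and 1.29 ± 0.57 RPKM in WT (SD, n = 3 each). The ratio of mean RPKM was 6.76, and the log2 fold change was 2.07 ± 0.29 (SE, n = 3 per group; limma adjusted p = 0.0268).

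Without Irf3KO replicate 2 Kcnj14 kept its call (limma adjusted p = 0.0286), and its log2 fold change was 1.83. It lost its call when any of 4 other libraries was left out, with a limma adjusted p of 0.083 without Irf3KO replicate 3 and of 0.135, 0.0712 and 0.163 without WT replicates 1, 2 and 3, at log2 fold changes of 2.08, 1.85, 2.22 and 2.13. Cardiomyocyte markers differed between libraries as well, with a median log2 fold change of 0.57 over the 12 markers and none called. Their sums were 14121.6, 23878.8 and 16819.0 RPKM in Irf3KO replicates 1 to 3, against 6824.2, 13320.2 and 18688.7 RPKM in WT replicates 1 to 3. Irf3KO replicate 2 was highest and WT replicate 1 lowest in both the marker sum and Kcnj14, while WT replicate 3 lay above Irf3KO replicates 1 and 3 in the marker sum and below them in Kcnj14. The part of these markers in the result was not tested.

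The genes on either side of Kcnj14 were read at much smaller differences. Grwd1, a WD-repeat protein of ribosome assembly, lies next to it and stood at 8.79, 16.08 and 10.86 RPKM in Irf3KO, against 7.95, 7.76 and 6.04 RPKM in WT. Cyth2, an exchange factor that activates ARF GTPases at membranes, lies on its other side and stood at 14.13, 19.52 and 15.59 RPKM in Irf3KO, against 13.52, 13.29 and 13.00 RPKM in WT. For both genes all Irf3KO libraries lay above all WT libraries, replicate 2 being the highest. Their log2 fold changes were 0.62 ± 0.25 for Grwd1 and 0.28 ± 0.19 for Cyth2 (SE; limma adjusted p = 0.556 and 0.563), and 0.39 and 0.15 without Irf3KO replicate 2. By the annotation neither gene overlaps Kcnj14.

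The other muscle and ion channel genes did not pass the test. Hrc, a calcium-binding protein of the sarcoplasmic reticulum, stood at 126.91, 112.73 and 119.73 RPKM in Irf3KO and at 38.75, 66.97 and 130.91 RPKM in WT. The Irf3KO libraries were close to each other and the WT libraries were spread, with WT replicate 3 the highest of all. WT replicate 1, the lowest for Hrc, also had the lowest sum of cardiomyocyte markers, 6824.2 RPKM, and the part of this in the result was not tested. Hrc had a log2 fold change of 0.77 ± 0.40 (SE; limma adjusted p = 0.556).

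Gys1, the glycogen synthase of muscle, stood at 17.01, 43.52 and 24.12 RPKM in Irf3KO and at 11.49, 19.72 and 22.73 RPKM in WT. Its highest value, in Irf3KO replicate 2, was 2.12 times the mean of the other 2 Irf3KO libraries. Trpm4, a cation channel opened by calcium, stood at 5.32, 7.69 and 5.79 RPKM in Irf3KO and at 3.96, 5.10 and 4.78 RPKM in WT, so that the groups did not overlap (limma adjusted p = 0.556). Kcna7, a voltage-gated potassium channel, was the flanking gene with the lowest level, at 1.1, 2.56 and 1.04 RPKM in Irf3KO and 0.58, 1.02 and 1.69 RPKM in WT, with overlapping groups.

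Fcgrt was the only gene of the immune group that the table holds. It encodes the neonatal Fc receptor, which protects antibodies and albumin from breakdown inside endothelial and myeloid cells. It stood at 110.84, 138.72 and 114.43 RPKM in Irf3KO, against 90.82, 68.50 and 93.96 RPKM in WT. All Irf3KO libraries lay above all WT libraries, and the log2 fold change was 0.52 ± 0.22 (SE; limma adjusted p = 0.556; 0.43 without Irf3KO replicate 2). Summed endothelial markers overlapped between the groups, at 206.0 to 333.8 RPKM in Irf3KO and 253.5 to 371.8 RPKM in WT, as did the macrophage markers given above. The part of either cell type in the values of Fcgrt was not tested.

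3 flanking genes had all Irf3KO libraries below all WT libraries. Dhdh, a dihydrodiol dehydrogenase, stood at 3.84, 1.83 and 2.70 RPKM in Irf3KO, against 4.35, 5.14 and 5.31 RPKM in WT, with the lowest value in Irf3KO replicate 2. Its log2 fold change was -0.68 ± 0.23 (SE; limma adjusted p = 0.513), and -0.48 without that library. In the annotation Dhdh overlaps Tulp2, and no label states whether the authors' counting used strand.

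Cpt1c, the brain member of the carnitine palmitoyltransferase family, lies 3 genes from Irf3 and stood at 5.08, 5.62 and 5.37 RPKM in Irf3KO, against 7.17, 9.39 and 7.09 RPKM in WT. The Irf3KO libraries lay close together, replicate 2 among them. The log2 fold change was -0.47 ± 0.19 (SE; limma adjusted p = 0.556), and -0.50 without Irf3KO replicate 2.

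Rcn3, a calcium-binding protein of the endoplasmic reticulum that takes part in collagen production, stood at 132.03, 138.83 and 148.55 RPKM in Irf3KO, against 226.35, 194.37 and 153.29 RPKM in WT. The groups were separated by a small gap between Irf3KO replicate 3 and WT replicate 3. The log2 fold change was -0.43 ± 0.23 (SE; limma adjusted p = 0.556). The groups were also separate in the summed level of 10 fibroblast markers, at 3861.5 to 5299.5 RPKM in Irf3KO and 6111.8 to 6920.7 RPKM in WT, with 3 of the 10 markers at an unadjusted limma p under 0.05 and none called. Their part in the values of Rcn3 was not tested. Rcn3 is 1 of the genes whose promoter window, printed above, holds the core letters of the response element. Kcna7 holds the same letters nearer to its start, and had overlapping groups and a log2 fold change of 0.28. Whether the letters play a part in the values of either gene was not tested.

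**Figure D2:**
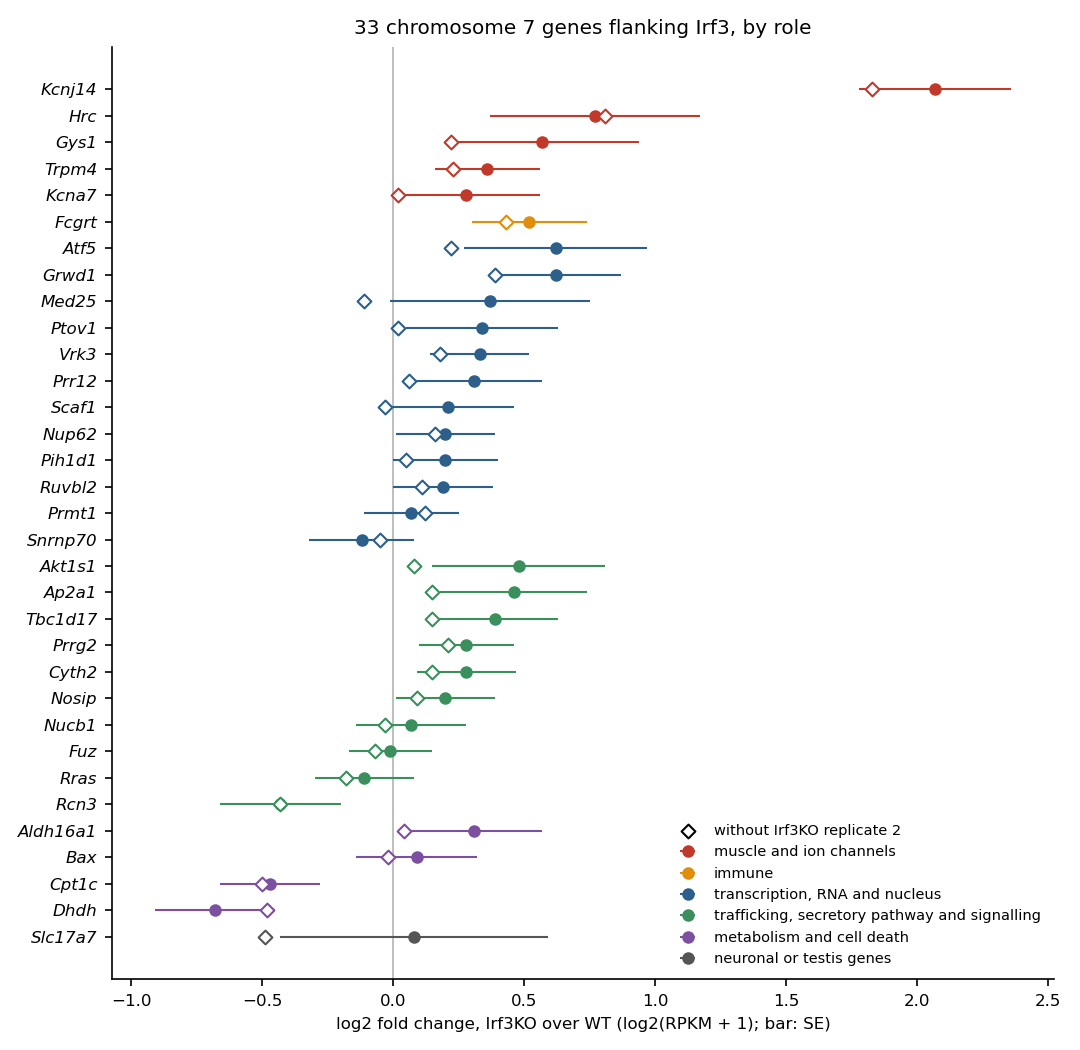
Log2 fold change of the 33 flanking genes, Irf3KO over WT on log2(RPKM + 1), grouped by role, with the SE as a bar; open diamonds give the value without Irf3KO replicate 2. Kcnj14 stands at 2.07, the other genes lie between -0.68 and 0.77, and most open diamonds lie nearer to 0 than the filled points.

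The 12 genes of transcription, RNA and the nucleus had log2 fold changes from -0.12 to 0.62, 11 of them above 0, with a median of 0.26 and none called. Med25, a subunit of the Mediator complex, stood at 17.35, 55.07 and 22.72 RPKM in Irf3KO and at 21.56, 20.66 and 22.29 RPKM in WT. Only Irf3KO replicate 2 was far from the rest, at 2.75 times the mean of the other 2 Irf3KO libraries, and without it the log2 fold change of 0.37 became -0.11. Atf5, a stress-responsive transcription factor, stood at 20.39, 53.92 and 25.51 RPKM in Irf3KO and 24.04, 18.67 and 16.42 RPKM in WT. Irf3KO replicates 2 and 3 lay above every WT library and replicate 1 among them, and the log2 fold change of Atf5 was 0.62 ± 0.35 (SE), or 0.22 without Irf3KO replicate 2.

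Vrk3, a pseudokinase of the nucleus, was the other gene of this group with Irf3KO libraries all above WT libraries besides Grwd1, at 11.19, 15.36 and 11.09 RPKM in Irf3KO and 10.07, 9.92 and 9.14 RPKM in WT (limma adjusted p = 0.556). Prmt1 and Scaf1 are the genes of this group nearest to Irf3. Prmt1, the main arginine methyltransferase that makes asymmetric dimethylarginine, stood at 34.45, 30.22 and 33.38 RPKM in Irf3KO and at 35.26, 30.49 and 28.09 RPKM in WT (log2 fold change 0.07 ± 0.18, SE). Scaf1, which binds the tail of RNA polymerase and adjoins Irf3, stood at 10.1, 20 and 13.85 RPKM in Irf3KO and at 11.90, 12.54 and 11.84 RPKM in WT, with the groups overlapping.

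Snrnp70, the core protein of the U1 splicing particle, was the only member of this group below 0, at -0.12 ± 0.20 (SE; limma adjusted p = 0.762). That direction does not hold under median-of-ratios scaling, where it was 0.00. The remaining members were Nup62 of the nuclear pore, Ruvbl2 and Pih1d1 of the R2TP chaperone complex, Ptov1, and Prr12. Their log2 fold changes ran from 0.19 for Ruvbl2 to 0.34 for Ptov1, and from 0.02 for Ptov1 to 0.16 for Nup62 without Irf3KO replicate 2. All of their groups overlapped.

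Of the 10 genes of trafficking, the secretory pathway and signalling, 7 had log2 fold changes above 0 and none was called; the median was 0.24. Akt1s1, the PRAS40 subunit that restrains the kinase complex mTORC1, stood at 17.78, 46.68 and 22.05 RPKM in Irf3KO and at 20.56, 17.55 and 18.02 RPKM in WT. Ap2a1, a subunit of the clathrin adaptor AP-2, stood at 18.62, 40.86 and 23.36 RPKM in Irf3KO and at 20.22, 18.52 and 17.42 RPKM in WT. In both genes Irf3KO replicate 2 was far above the other Irf3KO libraries (2.34 and 1.95 times their mean), and the other 2 lay within or near the WT range.

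Prrg2, a membrane protein with a Gla domain, stood at 6.17, 7.14 and 5.77 RPKM in Irf3KO and at 5.35, 4.85 and 4.93 RPKM in WT, and its groups did not overlap (log2 fold change 0.28 ± 0.18, SE; limma adjusted p = 0.556). In the annotation it overlaps Nosip, which modulates nitric oxide synthase and had overlapping groups (0.20 ± 0.19). Rras, a small GTPase of vascular cells adjoining Scaf1, stood at 60.42, 72.08 and 63.87 RPKM in Irf3KO and at 73.43, 72.40 and 66.39 RPKM in WT, with overlapping groups (-0.11 ± 0.19, and 0.01 under median-of-ratios scaling). The log2 fold changes of Tbc1d17, a GTPase-activating protein for Rab proteins, Nucb1, a calcium-binding protein of the Golgi, and Fuz, a planar polarity effector needed for cilia, were 0.39, 0.07 and -0.01, and that of Fuz was 0.08 under median-of-ratios scaling.

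Of the remaining genes of metabolism and cell death, Bax, which opens the outer mitochondrial membrane during apoptosis, stood at 44.02, 58.05 and 46.82 RPKM in Irf3KO and at 60.53, 42.57 and 38.10 RPKM in WT, with overlapping groups (log2 fold change 0.09 ± 0.23, SE). Aldh16a1, of the aldehyde dehydrogenase family, was at 0.31 ± 0.26 and overlaps Pih1d1 in the annotation. Slc17a7, a vesicular glutamate transporter of neurons, had the largest SE of the 33 genes, at 2.39, 13.00 and 4.39 RPKM in Irf3KO and 3.19, 4.58 and 8.31 RPKM in WT. Its log2 fold change was 0.08 ± 0.51 with Irf3KO replicate 2 and -0.49 without it.

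Over the list of 33 genes the median of the log2 fold changes was 0.28, with 27 above 0 (81.8%), against -0.09 and 40.7% for all genes tested. Irf3KO replicate 2 gave the highest of the 6 values for 25 of the 33 genes, and for 24.2% of all genes. Relative to the WT mean the median of the 33 genes was 0.00, 0.64 and 0.18 in Irf3KO replicates 1 to 3, and 0.05, -0.01 and -0.05 in WT replicates 1 to 3. Without Irf3KO replicate 2 the median over the 33 genes was 0.08, against 0.01 for all genes, and 22 were above 0.

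The flanking genes are rich in G and C, a property that the choice by position did not use. The longest transcript of each gene had a median GC content of 57.3% over the 33 genes, against 49.8% over 12707 genes with a value, and 28 of the 33 (84.8%) were at 55% or more, against 22.5% of all. In Irf3KO replicate 2 the deviation from the WT mean went with GC content over all genes. Its median was -0.77 for genes under 45% GC, -0.12 from 50 to 55%, 0.28 from 55 to 60% and 0.63 at 60% or more. The flanking genes stood at 0.64 from 55 to 60% (23 genes) and at 0.82 at 60% or more (5 genes) in that library. Across the 33 genes the correlation of GC content with the deviation in that library was 0.30 (Pearson's r), and across all genes it was 0.50. Across all genes it was -0.10 in Irf3KO replicate 1 and 0.28 in Irf3KO replicate 3. In replicate 3 the median rose from -0.16 for genes under 45% GC to 0.10 at 60% or more. Leaving out Irf3KO replicate 2 therefore leaves a library with a weaker GC trend in the group. Genes of 1 library share its depth and preparation and are not independent replicates.

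**Figure D3:**
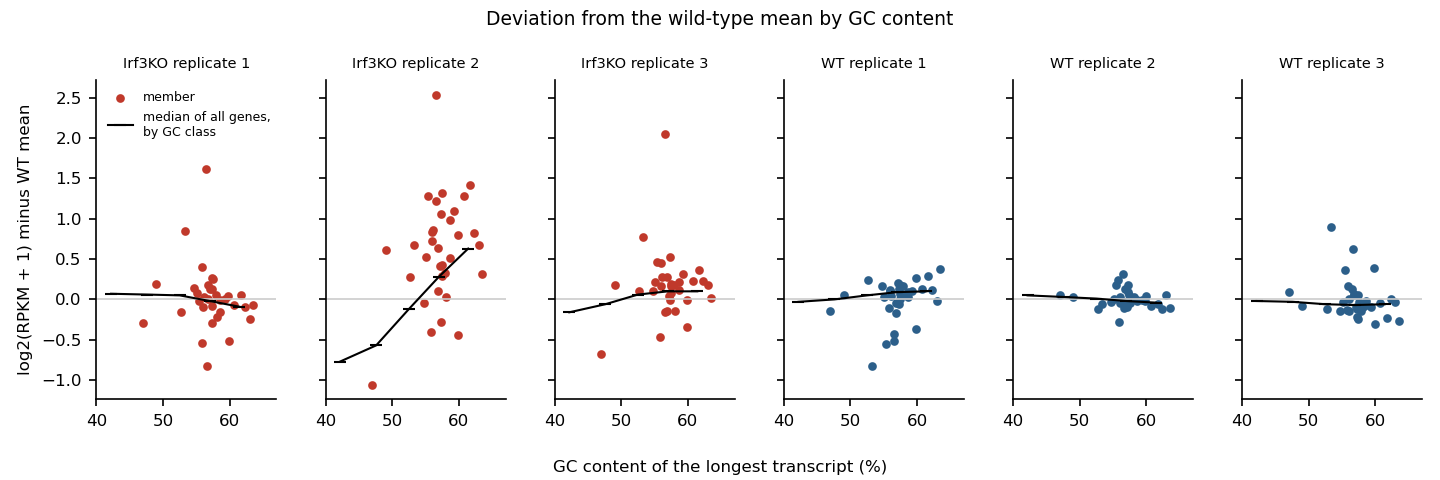
Deviation of log2(RPKM + 1) from the WT mean against GC content of the longest transcript, 1 panel per library, Irf3KO libraries first; points are the 33 flanking genes and the line joins the medians of all genes in 5 GC classes. The line climbs from -0.77 to 0.63 in Irf3KO replicate 2 and stays between -0.16 and 0.10 in the other libraries, and 1 point, Kcnj14, stands far above the line in all 3 Irf3KO panels.

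With the GC trend removed from each library, a setting chosen after seeing the data, the median of the 33 genes was 0.12, against 0.01 for all genes. Kcnj14 was then at 1.97 (limma adjusted p = 0.0256) and was again the only one of the 33 called. Irf3 itself was at -0.76 and passed the test in that setting (limma adjusted p = 0.0464). Dhdh, Cpt1c and Rcn3 were at -0.46, -0.56 and -0.60, and Grwd1 and Fcgrt at 0.50 and 0.44, none of them called.

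Along the gene order the listed genes were divided into 4 runs, and the unlisted genes that lie within and between the runs were left out. The median log2 fold change was 0.34 for the 11 genes from Vrk3 to Prmt1, 0.20 for the 10 from Scaf1 to Slc17a7, 0.19 for the 9 from Trpm4 to Nucb1, and 0.62 for the 3 from Cyth2 to Grwd1. Relative to the WT mean, the medians of the 4 runs were 0.86, 0.60, 0.33 and 1.06 in Irf3KO replicate 2. They were 0.00, -0.10, -0.02 and 0.26 in Irf3KO replicate 1, and 0.19, 0.14, 0.10 and 0.53 in Irf3KO replicate 3. Kcnj14, at 58 genes from Irf3, lies near the far end of the stretch. The last run holds only Kcnj14, which joined the list with its earlier result known, and its neighbour on each side. Its median therefore cannot show a trend with position. Of the listed genes between it and Irf3, Prrg2, Fcgrt, Trpm4 and Cyth2 had all Irf3KO libraries above all WT libraries, Rcn3 and Dhdh had them below, and the groups of the others overlapped. Bcat2 and Plekha4, which are not on the list, lie in the same interval and also had separate groups.

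**Figure D4:**
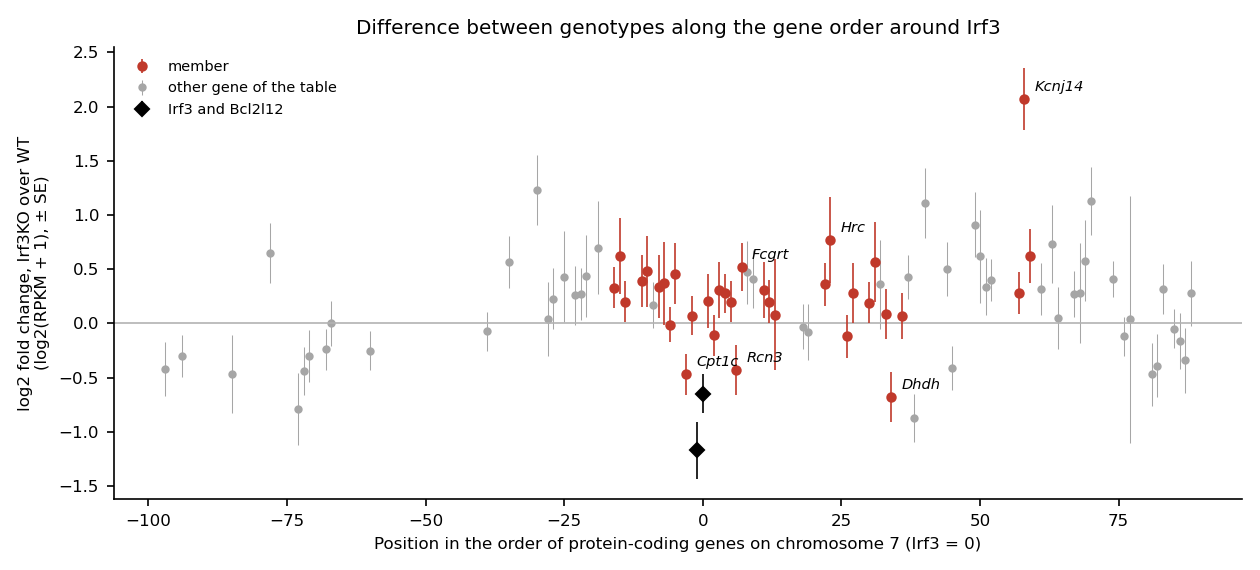
Log2 fold change, Irf3KO over WT on log2(RPKM + 1) with its SE, by position in the order of protein-coding genes on chromosome 7, with Irf3 at 0. Filled red points are the 33 flanking genes, grey points other genes of the table within 100 genes of Irf3, and black diamonds Irf3 and Bcl2l12; Kcnj14 at 2.07 is the highest point and Bcl2l12 at -1.17 the lowest.

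The table holds 52 other genes within 100 genes of Irf3 on either side. None was called (limma, adjusted p under 0.05), but with array weights 18 of 52 (34.6%) were, against 22.9% of all genes. In the fit with equal weights 9 of 52 (17.3%) had an unadjusted limma p under 0.05. The share was 15.2% for the 33 flanking genes, Kcnj14 included, 9.72% for the 864 other tested genes of chromosome 7 and 8.4% for all genes. The median log2 fold change of the 52 genes was 0.26. Of those remaining 864 genes 8 were called.

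On the side of Vrk3 the 3 smallest p-values among the 52 belonged to Lrrc4b, Cd33 and Clec11a. Lrrc4b, a synaptic adhesion protein, stood at 5.08, 10.12 and 6.10 RPKM in Irf3KO and at 1.46, 2.15 and 3.84 RPKM in WT (log2 fold change 1.23 ± 0.32, SE; limma adjusted p = 0.286). Cd33, a sialic acid receptor of myeloid cells, had a log2 fold change of -0.79 ± 0.33, and Clec11a, a secreted growth factor of the lectin family, one of 0.57 ± 0.24.

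On the side of Kcnj14 they belonged to Plekha4, Ush1c and Bcat2. Bcat2, the mitochondrial enzyme of branched-chain amino acid breakdown, stood at 32.12, 71.11 and 34.88 RPKM in Irf3KO and at 15.60, 20.70 and 22.81 RPKM in WT (1.11 ± 0.32, SE; limma adjusted p = 0.386). Ush1c, a scaffold protein, stood at 3.07, 3.09 and 3.56 RPKM in Irf3KO and at 0.14, 1.40 and 1.64 RPKM in WT (limma adjusted p = 0.339). Plekha4 was lower, at 1.61, 1.28 and 1.78 RPKM in Irf3KO and 2.50, 4.60 and 4.19 RPKM in WT (limma adjusted p = 0.278). All 6 genes had groups that did not overlap, which their choice by small p-values made likely. Among all 52 other genes around Irf3 the groups did not overlap for 14 (26.9%), 11 higher and 3 lower in Irf3KO, against 18.4% of all genes.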

How the data were processed

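RPKM for 12969 genes in 3 Irf3KO and 3 WT libraries, rounded to 2 decimals, were deposited by the authors with gene lengths; 5 gene names split over cells were repaired. The submitters' processing notes name edgeR 3.8.6, HTSeq 0.6.0, STAR 2.3.0, Picard 1.100 and SAMtools 0.1.18.0, with build mm9 and no settings.

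The fit was limma 3.58.1 (R 4.3.3, eBayes with trend, two-sided) on log2(RPKM + 1), for the 12913 genes averaging 1 RPKM or more, with Benjamini-Hochberg adjustment over all of them; this scale understates changes of low genes. Tested on simulated data for this comparison (12913 genes), the fit recovered 86 of the 100 4-fold changes and 35 of the 100 2-fold changes and made 5 false calls. The simulated noise was drawn separately for each gene and library, with no trend shared by the genes of a library. These counts therefore do not show how the fit behaves with a library such as Irf3KO replicate 2. Depth came from the 1-read steps of low values. Rounding exceeded 0.5 read for 15.2% to 80.7% of genes, so no count test was run. In the annotation 14 of the 33 genes overlap another protein-coding gene, where reads cannot be told apart without strand.

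The members and lists were chosen with earlier results of these data known. By rule, every library's value is given for Kcnj14, for members with an unadjusted p under 0.05 and for those with separate groups and a log2 fold change over 0.5 in size. Other genes within 100 genes of Irf3 are named where called or, with none called, by the 3 smallest p-values on each side. Other members with every value given were chosen after their values were seen. Pseudocount, filter, scaling, weights, moderation, replicate block, GC trend and leaving out each library were tried as alternatives.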

Additional observations from a re-analysis of the deposited data

How the results depend on the processing

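Replicate numbers did not pair the libraries: same-numbered deviations correlated at 0.129, -0.0978 and -0.102. With the replicate number as a block 250 genes were called in all, against 65, and Kcnj14 was again the only flanking gene called; 3 of the 52 other genes around Irf3 were called as well, Lrrc4b, Ush1c and Bcat2 (limma adjusted p = 0.0164, 0.0157 and 0.0363), and so was Bcl2l12 (0.0105). Median-of-ratios scaling moved the median of all genes from -0.09 to 0.02 and that of the flanking genes from 0.28 to 0.39. A filter at a mean of 5 RPKM called 34 genes in all and left 4 of the other genes around Irf3 with an unadjusted p under 0.05, against 9, with fewer genes tested. Array weights put 6.36 on Irf3KO replicate 3 and 4.4 on WT replicate 2, against 0.103 to 1 on the other libraries. That fit called 2960 genes, 7 of them flanking genes and 18 of them other genes around Irf3. In it 14 flanking and 28 other genes around Irf3 had an unadjusted p under 0.05, and the cause was not tested. Removing the GC trend called 108 genes. Leaving out 1 library gave 21 to 97 called genes and 0 to 1 called flanking genes. Then 1 to 8 flanking genes had an unadjusted p under 0.05 and 10 to 23 had separate groups. Of the other genes around Irf3, 5 to 11 had an unadjusted p under 0.05. Medians of the flanking genes ran from 0.08 to 0.40. With fewer libraries, separate groups come more easily for any gene. They were found for 24.1% of all genes without Irf3KO replicate 2, against 18.4% with all libraries. For unadjusted p and separate groups, shares of all genes are given only for the full fit and without Irf3KO replicate 2. The other counts are therefore not read as results about these genes. Directions turned for small values: Scaf1 (-0.01), Slc17a7 (-0.02) and Bax (-0.13) with the GC trend removed, Slc17a7 (-0.20) and Kcna7 (-0.01) with array weights, and Rras (0.01), Fuz (0.08) and Snrnp70 (0.00) with scaling. Leaving out 1 library also turned Prmt1 (-0.01 to 0.15), Scaf1 (-0.03 to 0.43), Slc17a7 (-0.49 to 0.53), Med25 (-0.11 to 0.70), Fuz (-0.07 to 0.06), Bax (-0.04 to 0.28) and Nucb1 (-0.03 to 0.19), none of which was called.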
